A study of Homo sapiens with 10 samples.

Results

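Ribosome biogenesis factors are the proteins that build ribosomes, and the results concern 48 of their genes in HCT116 cells. The genes were taken from a fixed list of symbols, all 48 were found among the 19821 protein-coding genes of the RefSeq annotation of GRCh38, and a gene was scored as occupied when a deposited peak lay within 1 kb of either end of its annotated span. HCT116 is an established human colorectal carcinoma line, used here as wild type (WT) cells. CUT&Tag, in which an antibody brings a transposase to chromatin so that DNA beside the bound protein is cut and tagged, was run with antibodies to POLR1A (3 samples), POLR2A (3 samples), the promoter mark H3K4me3 (1 sample) and the heterochromatin mark H3K9me3 (3 samples), each from 100000 to 200000 cells. POLR1A and POLR2A are the largest subunits of RNA polymerases I and II. Each target had 1 deposited peak list, so no value has a replicate error and no test between samples was possible.

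On chromosomes 1 to 22 and X the lists held 3812 POLR1A, 19997 POLR2A, 17181 H3K4me3 and 16414 H3K9me3 peaks. Read depth is unknown from peak lists. The size of a peak is given as its fold enrichment, a ratio computed by the authors, which ranks peaks within 1 list only. Where a gene had several peaks at its ends the highest value was used. Of 10 markers of colon epithelium, POLR2A and H3K4me3 were at the ends of 7, among them EPCAM and CDH1. KRT20, CDX1 and VIL1 had neither. KRT20 lay in a stretch of 669 kb without a peak of any list, so its missing peaks do not show that it is silent. Of 20 markers of leukocytes, fibroblasts, neurons and liver, POLR2A was at 4 (CD14, SYT1, RBFOX3 and APOA1) and H3K4me3 at 3 (COL1A1, SYT1 and APOA1). Intervals of at least 100 kb without any peak held 22.0% of all protein-coding genes. Markers of these other cell types may lie in such intervals too, and their missing peaks carry the same limit. Over all protein-coding genes POLR2A was at the ends of 41.3% and H3K4me3 at those of 54.6%.

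A ribosome is assembled around RNA that polymerase I makes in the nucleolus, while the proteins that process this RNA are encoded by genes that polymerase II transcribes. Small nucleolar ribonucleoproteins of the box C/D and box H/ACA kinds modify the RNA, the small subunit processome folds and cuts the precursor of the small subunit, and other factors mature the large subunit. Colorectal cancer cells are known for high MYC activity, and MYC is a well known activator of this gene group.

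POLR2A and H3K4me3 were found at most of the 48 genes, and POLR1A at few of them. POLR2A was at the ends of 39 of the 48 genes (81.3%, exact 95% interval 67.4 to 91.1), against 41.3% of all protein-coding genes. H3K4me3 was at 43 of 48 (89.6%, interval 77.3 to 96.5), against 54.6%. POLR1A was at 8 of 48 (16.7%, interval 7.48 to 30.2), against 11.2%, so its interval held the share of all genes. H3K9me3 was at 1 of 48 (2.08%), against 2.70%. The intervals cover counting error only, treating genes as separate draws. No set test was run, and these counts are descriptions.

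**Figure D1:**
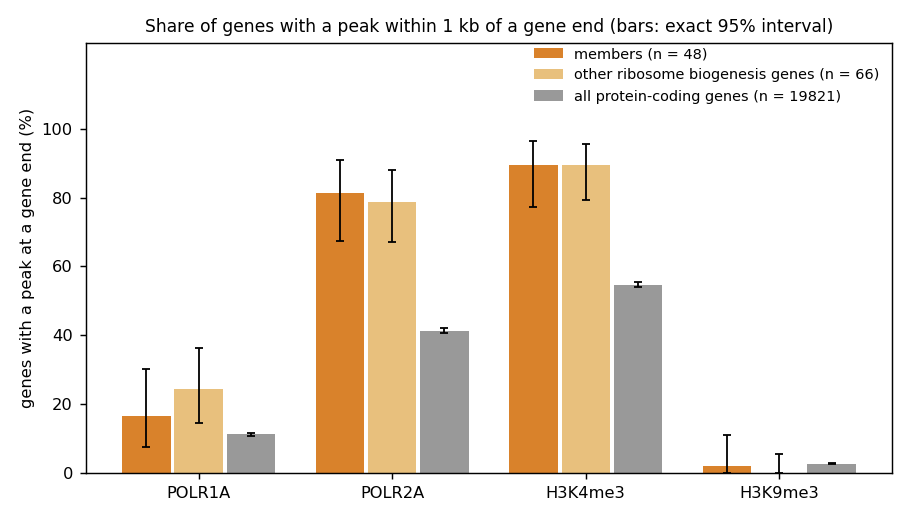
Share of genes with a peak within 1 kb of a gene end (y axis, percent) for each target (x axis), in the 48 ribosome biogenesis factor genes, in 66 other ribosome biogenesis genes and in all 19821 protein-coding genes. Error bars are exact 95% intervals. The members stand at 81.3% for POLR2A and 89.6% for H3K4me3, against 41.3% and 54.6% of all genes, while for POLR1A their interval of 7.48 to 30.2% holds the 11.2% of all genes.

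The most common pattern was POLR2A with H3K4me3 and without POLR1A, held by 31 genes (64.6%, against 28.6% of all genes). POLR1A together with POLR2A and H3K4me3 was found at 7 genes (14.6%, against 9.65% of all genes), and UTP18 carried all 4 targets (2.08%, against 1.01%). H3K4me3 alone was found at 4 genes (8.33%, against 14.4%), and 5 genes had no peak of any list at either end (10.4%, against 42.8%). All 8 genes with POLR1A had POLR2A at the same end and H3K4me3 as well, which was also the case for nearly all genes with POLR1A, at 95.5% for POLR2A and 98.6% for H3K4me3. Both polymerases at the same end were thus found at 16.7% of the members, against 10.7% of all genes.

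**Figure D2:**
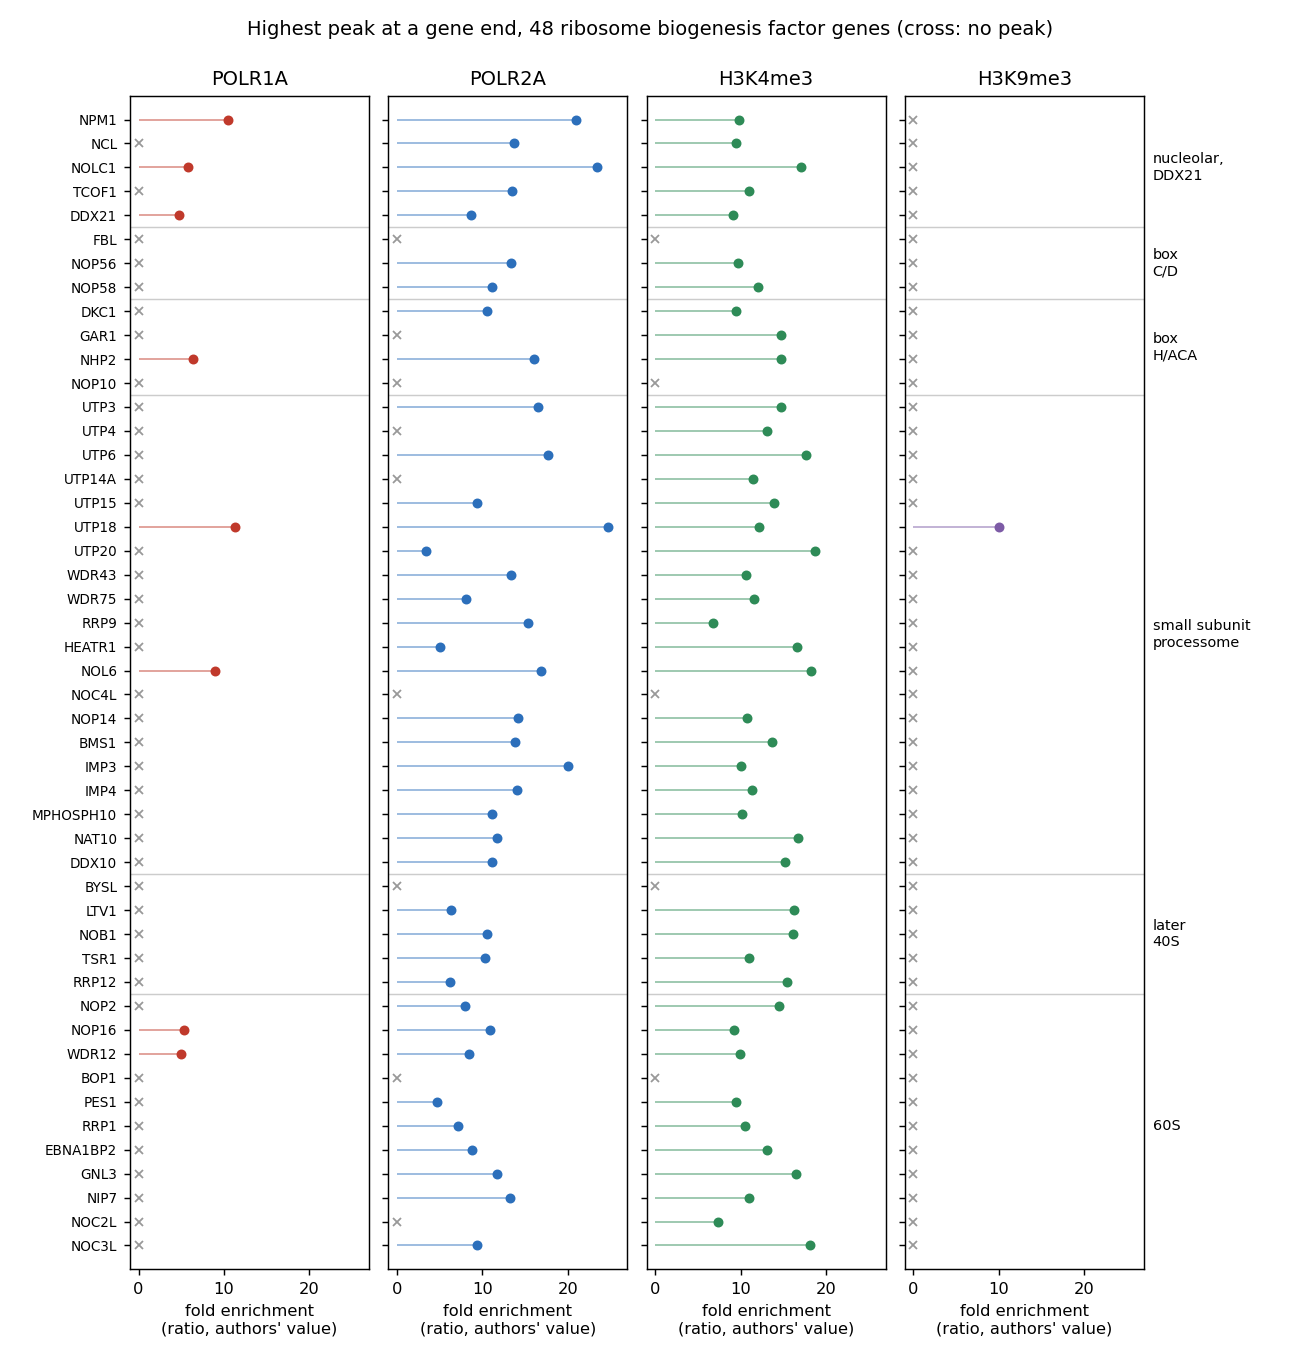
Highest fold enrichment at a gene end (x axes, ratio as deposited by the authors) for each of the 48 genes (rows, grouped by role), with a panel for each target. Crosses mark genes with no peak. POLR1A is seen at 8 genes and highest at UTP18 (11.3) and NPM1 (10.4). POLR2A ranges from 3.46 to 24.7 and H3K4me3 from 6.80 to 18.7 where present. H3K9me3 is seen at UTP18 alone (10.1).

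The 3 strongest POLR1A sites lay at UTP18, NPM1 and NOL6. UTP18, which encodes a WD-repeat protein of the small subunit processome, had a POLR1A fold enrichment of 11.3, higher than 95.9% of the POLR1A list counting ties. Its POLR2A value of 24.7 was the highest of the 48 genes. NPM1, which encodes the abundant nucleolar chaperone nucleophosmin, had a POLR1A value of 10.4 and a POLR2A value of 21.0. NOL6, the gene of another processome protein, had a POLR1A value of 8.98 and a POLR2A value of 16.9, and their summits lay at -52 bp and -58 bp from its start, negative values being upstream. H3K4me3 stood at 12.2 at UTP18, 9.79 at NPM1 and 18.2 at NOL6, so the order of these genes by H3K4me3 differed from that by polymerase.

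The promoters of these genes are shown because the POLR1A peaks overlap them. Each runs from 250 bases before the annotated start to 50 bases from it on, 5′ to 3′ on the strand of the gene, from RefSeq (GRCh38.p14). They are NPM1 at chr5:171387599-171387898 (plus strand), UTP18 at chr17:51260296-51260595 (plus strand) and NOL6 at chr9:33473875-33474174 (minus strand). Capitals mark the E-box CACGTG and the ETS core CCGGAAG, the second on either strand (CTTCCGG on the other), and the NPM1 stretch holds neither.
NPM1: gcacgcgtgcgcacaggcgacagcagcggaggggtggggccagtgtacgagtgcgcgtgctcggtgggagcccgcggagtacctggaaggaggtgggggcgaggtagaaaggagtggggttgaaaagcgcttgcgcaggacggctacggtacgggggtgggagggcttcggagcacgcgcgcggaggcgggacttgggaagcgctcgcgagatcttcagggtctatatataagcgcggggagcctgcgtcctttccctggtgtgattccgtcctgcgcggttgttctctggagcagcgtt
UTP18: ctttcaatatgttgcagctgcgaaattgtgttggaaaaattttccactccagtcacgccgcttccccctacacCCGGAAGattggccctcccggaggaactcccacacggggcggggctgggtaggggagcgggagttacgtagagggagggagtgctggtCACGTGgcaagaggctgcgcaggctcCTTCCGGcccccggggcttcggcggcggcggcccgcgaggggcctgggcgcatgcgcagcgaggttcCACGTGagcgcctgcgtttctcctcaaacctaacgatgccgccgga
NOL6: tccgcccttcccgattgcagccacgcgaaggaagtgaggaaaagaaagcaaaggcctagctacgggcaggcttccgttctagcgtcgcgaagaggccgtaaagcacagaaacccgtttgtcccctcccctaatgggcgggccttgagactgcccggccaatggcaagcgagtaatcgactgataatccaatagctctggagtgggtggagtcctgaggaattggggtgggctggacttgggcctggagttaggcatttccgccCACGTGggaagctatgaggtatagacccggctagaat

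The whole of the NPM1 stretch lay inside its POLR1A peak, which spanned 171387564 to 171387934 with its summit at -139 bp from the start. NPM1 has another annotated start 5′ of this start, at 171387116, whose own 300 bases held no POLR1A or POLR2A peak. The NPM1 POLR2A peak ended at the same base, 171387934, as the POLR1A peak. At NOL6 the POLR1A and POLR2A peaks began at the same base, 33473851, and at NHP2 both began at 178153863.

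At UTP18 the POLR1A and H3K9me3 peaks nearly coincided. The POLR1A peak spanned 51260111 to 51260457 and the H3K9me3 peak 51260109 to 51260437, with summits 3 bp apart. The H3K9me3 value of 10.1 was higher than 98.7% of that list counting ties, while the median over all genes with H3K9me3 at an end was 4.57. The same interval carried POLR2A (51260054 to 51260499) and H3K4me3 (51259290 to 51260740). Of the 535 protein-coding genes with H3K9me3 at an end, 201 had peaks of all 4 targets at their ends. Holding all 4 is thus not particular to UTP18 among genes with H3K9me3. The POLR1A summit lay 268 bp from the UTP18 start and 229 bp from that of the neighbouring gene MBTD1, so the peak cannot be assigned to either of them. Leaving out peaks that also lie beside another gene left 0 members with H3K9me3, against 1.81% of all genes, and a window of 2000 bp gave 2 (UTP18 and WDR43), against 3.99%.

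The other 5 genes with POLR1A had lower values. NHP2, of the box H/ACA core, had a POLR1A value of 6.34 and a POLR2A value of 16.0, with the POLR1A summit at -36 bp. NOLC1, which encodes a chaperone of small nucleolar ribonucleoproteins, had a POLR1A value of 5.78 beside a POLR2A value of 23.4, higher than 99.7% of the POLR2A list counting ties. A high POLR2A value therefore stood beside a POLR1A value near the median of all genes with POLR1A, 6.08.

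NOP16, a large subunit factor, had a POLR1A value of 5.31, and WDR12, of the PeBoW complex that also holds PES1 and BOP1, one of 5.02. Both POLR1A summits lay closer to the start of a neighbour than to that of the member. The NOP16 summit was 544 bp from its own start and 391 bp from that of HIGD2A. The WDR12 summit was 717 bp from its own start and 115 bp from that of CARF. The WDR12 POLR2A peak, with its summit at -574 bp, also lay beside CARF and did not overlap the listed WDR12 promoter. DDX21, an RNA helicase of the nucleolus, had the lowest value, 4.71, and was the member whose POLR1A peak did not touch its POLR2A peak. The POLR1A peak ended at 68955792 and the POLR2A peak began at 68955826. At the other 7 genes the POLR2A peak covered from 89.0% to 100% of the POLR1A peak, and the summits lay from 6 bp (NOL6) to 460 bp (NOP16) apart.

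With only the peaks of −log10 q of at least 5, POLR1A remained at 4 members (NPM1, NHP2, UTP18 and NOL6; 8.33%, against 5.36% of all genes). The values nearest this threshold were a −log10 q of 5.12 at NHP2 and 4.48 at NOLC1. Without peaks that also lay within 1 kb of another protein-coding gene, POLR1A was at 5 members (10.4%, against 6.53% of all genes), and UTP18, NOP16 and WDR12 no longer counted. TCOF1, which encodes treacle, a cofactor of polymerase I, had a POLR1A peak inside the gene with a fold enrichment of 3.32, and none at its ends. The −log10 q of this peak was at the minimum of the POLR1A list, so it is among the weakest peaks called. It alone adds TCOF1 to the whole-gene count that follows. Counting peaks over whole genes, in an alternative added after the data were seen, gave POLR1A at 9 members, against 15.4% of all genes, and POLR2A at 41, against 53.2%.

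Among the members with POLR2A, POLR1A was at 8 of 39 (20.5%, interval 9.30 to 36.5), against 26.0% of all genes with POLR2A. The POLR2A values of the 8 genes ran from 8.40 to 24.7 with a median of 16.4, and those of the 31 genes without POLR1A from 3.46 to 20.1 with a median of 11.1. With only peaks of −log10 q of at least 5 the share was 11.1%, against 16.1%. The ranges of the POLR2A values overlapped over most of their length. In all genes the medians were 13.2 with POLR1A and 7.79 without. H3K4me3 did not follow this order, with medians of 11.1 in the 8 genes and 12.1 in the 31.

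Since genes with POLR1A had the higher POLR2A values in all genes, the members were set beside all genes of like POLR2A strength. All genes with POLR2A were put into 5 groups of equal size by fold enrichment. In the strongest group, above 13.7, POLR1A was at 5 of 12 members (41.7%, interval 15.2 to 72.3), against 58.9% of all genes. In group 4, from 10.2 to 13.7, it was at 1 of 14 members, NOP16 (7.14%, interval 0.181 to 33.9), against 34.98%, above the upper end of that interval. In group 3 it was at 2 of 7 members (28.6%), against 19.4%. Groups 1 and 2 held 3 members each, none with POLR1A, against 4.88% and 11.7% of all genes, which is too few members to show a difference. Each group holds few members and the differences were not tested.

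**Figure D3:**
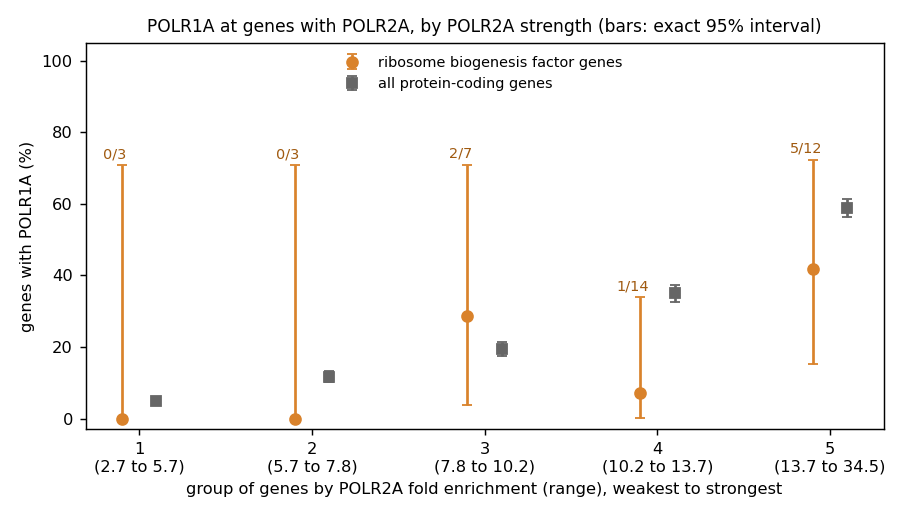
Share of genes with POLR1A (y axis, percent) among genes with POLR2A, in 5 groups of equal size by POLR2A fold enrichment (x axis, range in brackets), for the ribosome biogenesis factor genes and for all protein-coding genes. Bars are exact 95% intervals and the fractions count members. All genes climb from 4.88% in group 1 to 58.9% in group 5. The members stand below them in groups 1 and 2 (0 of 3 each), 4 (1 of 14) and 5 (5 of 12), and above them in group 3 (2 of 7). In group 5 the members' interval of 15.2 to 72.3% holds the share of all genes. The differences were not tested.

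By role, POLR1A was at 3 of 5 abundant nucleolar proteins counted with DDX21, 0 of 3 box C/D proteins, 1 of 4 box H/ACA proteins, 2 of 20 processome proteins, 0 of 5 later small subunit factors and 2 of 11 large subunit factors. In the same order POLR2A was at 5, 2, 2, 17, 4 and 9 of these, and H3K4me3 at 5, 2, 3, 19, 4 and 10. Over all genes the shares were 11.2% for POLR1A, 41.3% for POLR2A and 54.6% for H3K4me3. With only peaks of −log10 q of at least 5, NPM1 alone of the nucleolar group kept POLR1A. The median POLR2A fold enrichment was 13.7 in the nucleolar group and 13.8 in the processome. It was 8.30 in the later small subunit factors and 8.84 in the large subunit factors. H3K4me3 medians ran otherwise, from 9.79 in the nucleolar group to 15.8 in the later small subunit factors. Roles were not tested against each other.

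Among the abundant nucleolar proteins, NCL, which encodes nucleolin, had a POLR2A value of 13.7 and TCOF1 one of 13.4, and neither had POLR1A at an end. In the box C/D core, NOP56 had POLR2A at 13.4 and NOP58 at 11.2, both with H3K4me3. NOP56 also had a POLR2A peak of 5.79 at its 3′ end, beside IDH3B. DKC1, the pseudouridine synthase of the box H/ACA core, had POLR2A at 10.6.

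The 5 highest POLR2A values were at UTP18, NOLC1, NPM1, IMP3 (20.1) and UTP6 (17.7). IMP3, a U3 small nucleolar RNA partner, and UTP6, of the processome, had no POLR1A, so POLR2A values of this size were found without it. The 3 lowest at the ends of the gene spans were at UTP20 (3.46), PES1 (4.74) and HEATR1 (5.03). The PES1 value is a peak at its 3′ end, and at its annotated start inside the span POLR2A was at 13.0. UTP20 had the highest H3K4me3 value of the group, 18.7, and HEATR1 had 16.7. Both encode very large proteins of the processome. In these genes a high H3K4me3 value stood beside a low POLR2A value.

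The next highest H3K4me3 values were at NOL6 (18.2), NOC3L (18.2), UTP6 (17.7) and NOLC1 (17.1). NOC3L, a large subunit factor, had POLR2A at 9.35. The 3 lowest were at RRP9 (6.80), NOC2L (7.42) and DDX21 (9.10). RRP9, a protein specific to the U3 ribonucleoprotein, had POLR2A at 15.4, beside the lowest H3K4me3 value. Its H3K4me3 peak was the widest of the group at 2295 bp. Both this peak and the POLR2A peak of 15.4 also lay at an end of PARP3. Over all members the H3K4me3 peaks at gene ends had a median width of 1291 bp, against 966 bp at all gene ends, and the POLR2A peaks 444 bp, against 317 bp. POLR1A peaks were not wider, with medians of 269.5 bp and 297 bp.

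Among the other processome genes POLR2A was highest at UTP3 (16.6) and NOP14 (14.2), followed by IMP4, and lowest at UTP15 (9.35) and WDR75 (8.09). The NOP14 peak of 14.2 also lay beside an end of GRK4. NOP14 had 2 more POLR2A peaks, of 5.75 at its 3′ end and 7.52 inside the gene. The GTPase gene BMS1 had POLR2A at 13.8, WDR43 at 13.3, NAT10 at 11.8, and MPHOSPH10 and the helicase gene DDX10 at 11.1 each. DDX10 had POLR2A peaks of 3.63 and 7.83 inside the gene as well. H3K4me3 in these genes ran from 10.2 at MPHOSPH10 to 16.8 at NAT10. The processome genes with POLR1A were UTP18 and NOL6, described above.

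The later small subunit and the large subunit factors had the lowest POLR2A medians of the roles, and their values overlapped those of the processome genes. LTV1, a factor of small subunit export, had POLR2A at 6.30 and RRP12 at 6.26, with H3K4me3 at 16.2 and 15.4. NOB1, the endonuclease that makes the final cut in the small subunit RNA, had POLR2A at 10.6 and H3K4me3 at 16.1, and TSR1 10.3 and 11.0. In the large subunit group NIP7 had the highest POLR2A value, 13.3, and GNL3 had 11.7. EBNA1BP2 had POLR2A at 8.84, the RNA methyltransferase gene NOP2 at 7.94 and RRP1 at 7.20. A POLR2A value under 10 thus stood beside H3K4me3 values of 13.1 at EBNA1BP2, 14.5 at NOP2 and 10.6 at RRP1. The POLR2A peaks of TSR1, NIP7, GNL3 and EBNA1BP2 also lay beside an end of another protein-coding gene.

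The median POLR2A value of the 39 members was 11.2, against 8.87 over all genes with POLR2A. For H3K4me3 it was 12.1 over 43 members, against 11.0, and for POLR1A 6.06 over 8, against 6.08. With only peaks of −log10 q of at least 5 the POLR1A median was 9.70 over 4 members, against 7.58. The members' middle range, from the lower to the upper quartile, was 8.78 to 14.1 for POLR2A, which overlapped that of all genes (6.23 to 12.7). Since the lists differ in length, each was also cut to the 3812 peaks of highest fold enrichment. POLR2A was then at 26 members, against 17.3% of all genes, and H3K4me3 at 20, against 17.8%. POLR1A was at 23.1% of the members with POLR2A, against 46.1% of all such genes. Without peaks that also lay beside another gene H3K4me3 was at 28 members, against 38.7% of all genes.

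The shares of members whose peaks also lay beside a neighbouring gene were near those of all genes. All POLR2A peaks at the ends of 11 of 39 members also lay within 1 kb of an end of another protein-coding gene (28.2%, against 31.3% of all genes with POLR2A). These members were UTP15, UTP18, WDR75, IMP4, MPHOSPH10, TSR1, NOP16, WDR12, EBNA1BP2, GNL3 and NIP7. For POLR1A this held for 3 of 8 members (37.5%, against 41.5%), and for H3K4me3 for 15 of 43 (34.9%, against 29.3%). At RRP9 and NOP14 the strongest POLR2A peak also lay beside a neighbour, but each had a weaker 3′ peak (3.12 and 5.75) that did not. These genes were thus not among the 11.

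H3K4me3 without POLR2A at either end was found at GAR1 (14.7), UTP4 (13.1), UTP14A (11.5) and NOC2L (7.42). In all genes 14.9% had H3K4me3 at an end with POLR2A at neither. GAR1 belongs to the box H/ACA core, UTP4 and UTP14A to the processome, and NOC2L to large subunit assembly. The promoter mark was therefore present at the ends of these genes while no POLR2A peak was called within 1 kb. Both H3K4me3 peaks at UTP4 also lay beside ends of CHTF8 and DERPC, so the mark there cannot be assigned to UTP4.

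No peak of any list was at the ends of FBL, NOP10, NOC4L, BYSL and BOP1, against 42.8% of all genes. BYSL is set apart by its annotation. Its span begins at 41908759 on chromosome 6, but its start in the promoter table is at 41921499, where POLR2A (8.81) and H3K4me3 (7.92) were found with summits at -404 bp and -449 bp. Those peaks also lay beside an end of MED20. PES1 likewise had its annotated start inside the span, at 30591910 on chromosome 22, with POLR2A at 13.0 and H3K4me3 at 11.6 there, while the values at its ends came from other sites. With windows around annotated starts, in an alternative added after the data were seen, POLR2A was at 35 of 42 members, against 44.0% of all genes with a listed start, and H3K4me3 at 39, against 58.5%. POLR1A was at 7, against 12.0%.

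FBL, NOP10 and NOC4L lay in intervals where none of the 4 lists had a peak. FBL encodes fibrillarin, the RNA methyltransferase of the box C/D core, and lay between peaks at chr19:39540317-40147815, a stretch of 607 kb with 12 protein-coding genes that include PSMC4, a proteasome gene. NOP10 lay in 142 kb on chromosome 15 with 3 other genes, and NOC4L in 308 kb on chromosome 12 with DDX51 and GALNT9. BOP1 on chromosome 8 had a POLR2A peak of 5.47 inside the gene, also within 1 kb of SCX, and its nearest H3K4me3 peak was 113 kb away. Intervals of at least 100 kb without any peak held 3 of the 48 members (6.25%) and 22.0% of all protein-coding genes. The lists also held 23 peaks on alternate and patch contigs of chromosome 19, 71 of chromosome 15, 19 of chromosome 12 and 63 of chromosome 8. Their part in the missing peaks was not tested, and a missing peak here does not show that the gene is silent.

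Most polymerase summits lay upstream of the annotated starts and most H3K4me3 summits downstream, in the members as in all genes. Of 42 members with a strand in the promoter table, POLR2A was at the 5′ end alone of 30, at both ends of 3 and at the 3′ end alone of 1 (PES1). All 7 POLR1A sites were at the 5′ end. The median POLR2A summit lay at -95 bp from the nearest start (31 of 33 upstream), against -94 bp for all genes with a peak there (79.3% upstream). It was within 150 bp of the start in 87.9% of members, against 59.8% of all genes. The median POLR1A summit lay at -268 bp (7 of 7 upstream), against -141 bp for all genes (79.3% upstream). Of the 7 POLR1A summits 3 (42.9%, against 43.4% of all genes) were within 150 bp, at NHP2, NOL6 and NPM1, and 4 were farther out, at UTP18, DDX21, NOP16 and WDR12. The POLR1A median of -268 bp is the UTP18 summit. The summits at UTP18, NOP16 and WDR12 lay closer to the start of a neighbour (MBTD1, HIGD2A and CARF). The median therefore does not show where POLR1A lies relative to the members' own starts. The median H3K4me3 summit lay at 64 bp (5 of 38 upstream), against 94 bp (35.1% upstream).

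**Figure D4:**
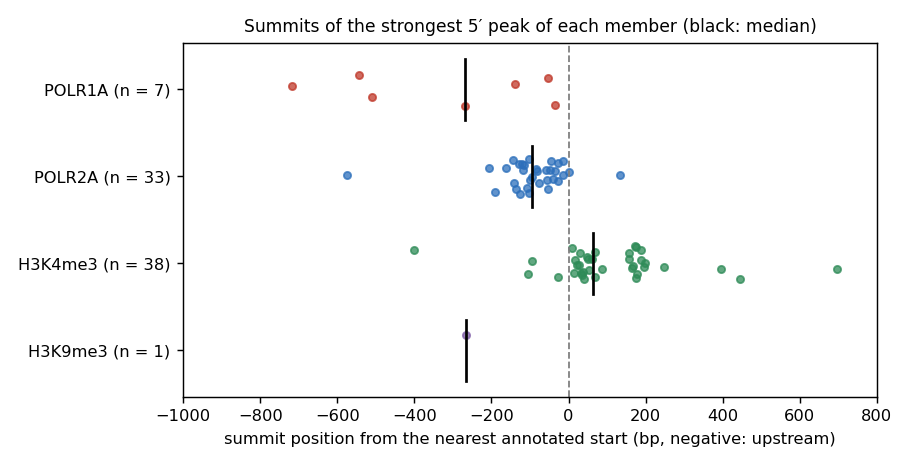
Position of the summit of the strongest peak at the 5′ end of each member (x axis, bp from the nearest annotated start, negative upstream) for each target (rows). Each point is a gene and black lines are medians. POLR2A summits gather just upstream (median -95 bp) and H3K4me3 summits just downstream (median 64 bp), while the 7 POLR1A summits reach from -36 to -717 bp. The H3K4me3 summit of PES1 lies off the axis at -15259 bp.

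Many of the members' promoters held a sequence motif that the choice of genes did not use. The E-box CACGTG, a palindrome bound by MYC, MAX and USF proteins among others, was in the promoter table for 21 of the 42 members with an entry (50%, interval 34.2 to 65.8). It was in 10.9% of all 15812 protein-coding genes with an entry and in 12.5% of those with POLR2A. A gene counted if any of its listed promoters of 300 bases held the motif. Taking the highest of a gene's listed promoters, the median GC content was 64.5% in members and 64.7% in all genes. The E-box contains CpG, and the median ratio of observed to expected CpG was 0.893 in members, against 0.875 in genes with POLR2A and 0.799 in all genes. MYC binding was not measured here, and a match is no proof of binding.

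The E-boxes sat near the start. In 20 of the 42 members (47.6%, interval 32.0 to 63.6) an E-box lay within 50 bases on either side of a start, against 4.40% of all genes and 5.23% of those with POLR2A. Among genes with an E-box in the promoter, it lay within that distance in 95.2% of members (20 of 21), against 68.8% of the other ribosome biogenesis genes, 42.0% of genes with POLR2A and 40.4% of all genes. UTP14A was the member with an E-box farther away only, at -241, counting the start as base 1 and bases before it as negative. The stretches of 7 of these genes are shown with 60 bases before the start and 50 from it on, so that the position of the motif can be compared. They are FBL (chr19:39846330-39846439, minus strand), NOP10 (chr15:34343087-34343196, minus strand), RRP9 (chr3:51941855-51941964, minus strand), NAT10 (chr11:34105569-34105678, plus strand), BYSL (chr6:41921439-41921548, plus strand), PES1 (chr22:30591861-30591970, minus strand) and GNL3 (chr3:52685972-52686081, plus strand). Capitals mark the E-box, and in NOP10 also an ETS core on the opposite strand.
FBL: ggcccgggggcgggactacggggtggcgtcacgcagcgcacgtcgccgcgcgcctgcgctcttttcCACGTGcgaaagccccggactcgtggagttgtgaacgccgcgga
NOP10: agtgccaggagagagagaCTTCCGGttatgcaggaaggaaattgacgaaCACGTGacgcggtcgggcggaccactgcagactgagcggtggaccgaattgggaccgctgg
RRP9: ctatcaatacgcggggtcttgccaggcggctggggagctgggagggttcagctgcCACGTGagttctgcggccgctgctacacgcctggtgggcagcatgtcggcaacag
NAT10: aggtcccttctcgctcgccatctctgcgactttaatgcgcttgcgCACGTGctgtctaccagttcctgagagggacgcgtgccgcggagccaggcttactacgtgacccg
BYSL: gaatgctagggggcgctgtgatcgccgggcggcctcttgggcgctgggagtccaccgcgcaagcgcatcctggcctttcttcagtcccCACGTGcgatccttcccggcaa
PES1: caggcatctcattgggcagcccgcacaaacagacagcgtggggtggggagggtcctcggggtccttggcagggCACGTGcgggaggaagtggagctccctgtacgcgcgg
GNL3: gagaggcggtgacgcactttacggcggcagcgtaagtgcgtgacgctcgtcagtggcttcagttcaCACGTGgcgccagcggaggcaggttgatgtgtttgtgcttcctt

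The first base of the E-box was at -15 in NAT10, the RNA acetyltransferase gene, at -11 in NOP10 and at -5 in RRP9. It was at 7 in FBL and in GNL3, which encodes the GTPase nucleostemin, at 14 in PES1 and at 29 in BYSL. FBL and NOP10 are thus among the genes with an E-box at the start and no peak of any list. In the UTP18 promoter printed above E-boxes began at -89 and at 5, and in that of NOL6 at 14. E-boxes were present in 3 of the 7 members with POLR1A and an entry, and in 12 of the 27 with POLR2A and no POLR1A. These are 42.9% and 44.4%, and the difference was not tested.

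**Figure D5:**
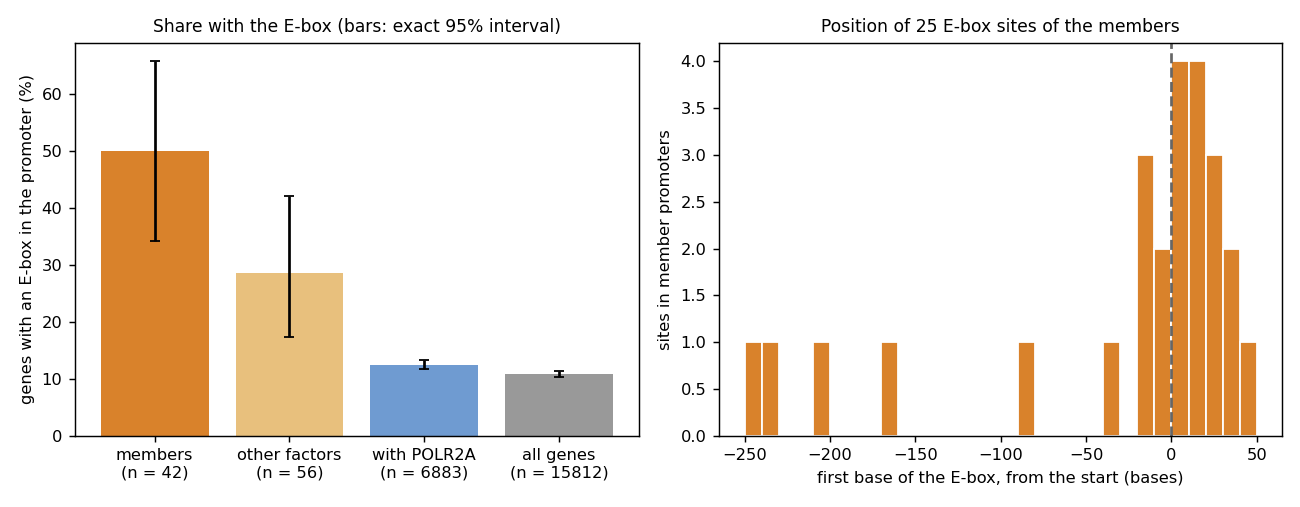
Left, share of genes with the E-box in a listed promoter (y axis, percent, exact 95% intervals): 50% of 42 members, 28.6% of 56 other ribosome biogenesis genes, 12.5% of protein-coding genes with POLR2A and 10.9% of all. Right, position of the first base of the 25 E-box sites in member promoters (x axis, bases from the start) against the number of sites per 10 bases (y axis), most of which fall close to the start.

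The ETS core CCGGAAG, searched on both strands, was in the promoters of 15 of 42 members (35.7%, interval 21.6 to 52.0), against 24.7% of genes with POLR2A and 16.5% of all genes with an entry. In the other ribosome biogenesis genes it was in 30 of 56 (53.6%), so the members did not hold it most often.

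Small nucleolar RNA genes lie inside 9 of the 48 members (18.8%, against 2.64% of all protein-coding genes). NOP56 and GNL3 hold 5 each, NOP58 4, NCL and WDR43 3 each, DKC1 and TSR1 2 each, and UTP20 and BMS1 1 each. POLR2A was at the ends of 9 of the 9, against 59.1% of all protein-coding genes with such RNA genes inside, and H3K4me3 at 9, against 72.5%. POLR1A was at 0 of the 9, against 15.5%, and H3K9me3 at 0, against 1.91%. With 9 genes these counts of 0 show no difference from those shares.

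A further 66 genes of the same pathway, from a list that shares no gene with the members, gave similar shares for POLR2A and H3K4me3. This list, like that of the members, was chosen with earlier results of these data known. The likeness is therefore no independent check. POLR2A was at 52 (78.8%, interval 66.98 to 87.9), H3K4me3 at 59 (89.4%), H3K9me3 at 0 and POLR1A at 16 (24.2%, interval 14.5 to 36.4), against 11.2% of all genes. A count of 0 in 66 genes allows a share of up to 5.44% by the exact interval. Among genes with POLR2A, POLR1A was at 16 of 52 (30.8%), against 26.0% of all such genes. The highest POLR1A values were at DCAF13 and NOL11, of the processome, with 8.61 each, and at the helicase genes DDX49 (7.90) and DDX56 (7.39). RIOK1, a kinase of small subunit maturation, had 6.99, UTP11 6.04, BRIX1, a large subunit factor, 5.67 and PNO1 5.58. The median POLR1A value was 6.06 over the 8 members, against 5.34 over these 16 genes, and none of the 16 reached the values of UTP18, NPM1 and NOL6. E-boxes within 50 bases of a start were found in 47.6% of the members, against 11 of 56 of these genes (19.6%).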

How the data were processed

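The authors deposited 1 narrowPeak list per target, and the peak names carry MACS2. The H3K4me3 list belongs to 1 sample and the others name no replicate. Each peak carries a fold enrichment (a ratio), a −log10 q, a whole-number score and a summit offset, as deposited by the authors. How peaks were called, whether replicates were pooled and how repeats were handled is not given in the sources used here. STAR and SAMtools 1.6 are among the tools in the submitters' processing notes, which give the build as GRCh38.

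Each gene end was given a window reaching 1000 bp either way, which was searched for peaks sharing 1 base, with Python 3.11.15, pandas 2.3.3 and SciPy 1.17.1. The search was tested on simulated peaks. Genes came from RefSeq GRCh38.p14, and strand, starts and promoter sequences from its promoter table, which matched 42 of the 48 members (not NOLC1, TCOF1, NOP58, MPHOSPH10, RRP12 and BOP1). Intervals are exact Clopper-Pearson 95% intervals. No p-value was computed from the lists. The members and gene lists were chosen with earlier results of these data known, and the ETS motif was added after peak values had been seen. Named genes were all members with POLR1A at an end or with H3K9me3 at an end or in the body, the 5 highest and 3 lowest by POLR2A and by H3K4me3, every member without POLR2A or without H3K4me3, and up to 8 other pathway genes highest in POLR1A. Other members were named for their role, annotation or promoter after their values were seen. Alternatives were a window of 500 or 2000 bp, a −log10 q of at least 5, lists of equal length, the summit or at least 50% of the peak in the window, the 5′ end only, no peaks shared with another gene and, added later, annotated starts and whole genes.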

Additional observations from a re-analysis of the deposited data

How the results depend on the processing

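No paired analysis was possible because the peak lists carry no replicate, and for the same reason no replicate could be left out. Of 90 values from 9 results under 10 alternatives, 81 stayed close to the main value (counts within 1.5 times of it, the share and the medians within its 95% interval), and 9 counts or medians did not. These limits are wide, so staying close is weak evidence of stability. The interval of the POLR1A median, 4.71 to 11.3, is the full range of its 8 values. A fall of POLR2A from 39 to 26 members still counted as close. At a −log10 q of at least 5, POLR1A was at 4 members (8.33%, against 5.36% of all genes). Both polymerases were then at the same end of 4, against 5.31%. Without peaks shared with another gene, POLR1A was at 5 members (10.4%, against 6.53% of all genes), and at 5 with POLR2A (against 6.06%). H3K4me3 was then at 28 (58.3%, against 38.7%) and H3K9me3 at 0 (against 1.81%). With lists of equal length H3K4me3 was at 20 members (41.7%, against 17.8% of all genes). Their median fold enrichment was 15.8, against 15.0. With a window of 2000 bp H3K9me3 was at 2 members (4.17%, against 3.99% of all genes), WDR43 being added. POLR2A ranged from 26 members (lists of equal length, 54.2%, against 17.3% of all genes) to 41 (whole genes, 85.4%, against 53.2%). The share of POLR1A among members with POLR2A ranged from 11.1% to 23.1% and was below that of all such genes in all 10 alternatives, which share their peaks. The windows do not separate promoter from terminator for the 6 members without strand. Read depth behind the lists is unknown, so a missing peak limits nothing beyond these lists.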
